A study of Mus musculus with 16 samples.

Results

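The Sfmbt2-type repeat miRNAs are the mouse miR-297, miR-466, miR-467 and miR-669 families. Every row of the small RNA table whose name carries 1 of these 4 family numbers was taken, with any letter, copy number and arm, which gave 162 rows from 81 hairpins out of 1696 rows in the table. A row is 1 arm (5p or 3p) of 1 hairpin. Of these 162 rows, 12 belonged to miR-297, 56 to miR-466, 34 to miR-467 and 60 to miR-669. By the GRCm38.p6 RefSeq annotation, 71 hairpins (142 rows) lie inside Sfmbt2 on chromosome 2 and 10 hairpins (20 rows) lie on 7 other chromosomes.

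Small RNA was sequenced from wild-type v65 mouse embryonic stem cells of a mixed 129/C57BL/6 background, at passages 9-11. For the 0 h libraries the cells were kept in 2iL, which combines inhibitors of MEK and GSK3 with LIF and holds them in the naive pluripotent state. For the others they were moved into N2B27 with bFGF and KSR for 12, 24 or 48 h, with 2 libraries at each time. For mRNA, Dgcr8-/- cells of the line ES1, with the same background and passage range, were taken after 48 h in the same differentiation medium and in 2iL, and v65 wild-type cells likewise, with 2 libraries a group. Each genotype is 1 line, so line and genotype cannot be told apart, and small RNA of Dgcr8-/- cells was not analysed here. The study text calls the 2 libraries biological replicates without saying what was repeated, so each spread below is that between these libraries.

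A miRNA hairpin is cut from its primary transcript by Drosha with its partner Dgcr8, then cut by Dicer into a duplex whose 5p or 3p strand is loaded onto an Argonaute protein. The loaded strand recognises mRNAs chiefly through its seed, bases 2 to 8. The miR-297, miR-466, miR-467 and miR-669 hairpins form a rodent-specific tandem array in an intron of Sfmbt2, an imprinted gene for a Polycomb group protein that is expressed from the paternal allele and is known for its part in the growth of the placenta. Their arms carry long runs of alternating purine and pyrimidine (UG or CA repeats), and many copies give the same or nearly the same mature RNA.

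RefSeq mature sequences matched 8 of the 81 hairpins, all of them outside Sfmbt2. The 6 below are shown because their hairpins include the one with a row that fell and others with rows that rose at 48 h, and because they show the UG-rich and CA-rich kinds of arm (seed in capitals, 5′ to 3′, hairpin position in GRCm38.p6).
miR-466q, hairpin chr3:28419943-28420018, + strand: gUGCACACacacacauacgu
miR-467f, hairpin chr11:69635400-69635519, - strand: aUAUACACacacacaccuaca
miR-466i-3p, hairpin chr13:17747473-17747593, + strand: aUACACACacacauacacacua
miR-466k, hairpin chr3:85467377-85467498, + strand: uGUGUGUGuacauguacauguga
miR-669n, hairpin chr3:115979902-115979955, + strand: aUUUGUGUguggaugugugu
miR-466j, hairpin chr10:60960723-60960844, + strand: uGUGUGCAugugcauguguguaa
None of these 6 seeds is the same as another. G and U make up 14.3% of the bases of miR-467f, 13.6% of miR-466i-3p and 30.0% of miR-466q, against 69.6% of miR-466k, 73.9% of miR-466j and 90.0% of miR-669n. By position, the sequences of miR-466k and miR-669n lie in the 5p arm and those of miR-466q, miR-467f, miR-466i and miR-466j in the 3p arm.

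The values are the authors' relative signal, in which every library sums to 110000. Whole reads could be recovered from the steps between low values, at 5441382 to 9131989 reads a library, so 1 read was worth 0.0120 to 0.0202. Each total adds 2 tables of similar size, and whether these hold separate reads is not given in the sources used here, so the true depth, and with it the edgeR and DESeq2 results, may rest on fewer reads. Reads that match several copies were counted in full at each copy: 85 of the 162 rows fell into 14 groups whose rows agreed within 2% in every library. Taking each such group once leaves 91 entries. Both forms are given below for the counts over all members against 0 h and for the summed signal. A row was tested where it reached 0.5 in at least 2 of the 8 libraries, which 146 rows (75 entries) did and 16 did not. Of the 146, 137 reached 0.5 in both 0 h libraries and 3 passed only through the 48 h libraries. Of the 16, 2 were at 0 in every library, and the highest mean was 0.309, for miR-467h-3p. In mRNA, the summed FPKM of the 8 pluripotency markers, most of it from Pou5f1 and Dppa5a, was 2795 to 2898 in Dgcr8-/- cells at 48 h and 4715 to 5164 in 2iL, and 1220 to 1302 in wild-type cells at 48 h and 3556 to 3572 in 2iL. Each of the 8 was lower at 48 h than in 2iL in both genotypes, to very different degrees. In wild-type cells Pou5f1 measured 738 and 695 FPKM at 48 h against 905 and 918 in 2iL, and Nanog 5.38 and 5.31 against 208 and 216. The summed FPKM of the 4 markers of the formative state, most of it from Dnmt3b, was 240 to 249 in Dgcr8-/- cells at 48 h and 59.3 to 62.9 in 2iL. In wild-type cells it was 633 to 646 at 48 h and 101 to 111 in 2iL. At 48 h Fgf5, Pou3f1 and Dnmt3b were each higher in wild-type cells. Otx2 went the other way, with 41.2 and 38.0 FPKM in Dgcr8-/- cells against 26.9 and 26.7 in wild-type cells. The sum of the 7 primitive endoderm markers was at most 3.04 in any library. The 8 fibroblast and feeder cell markers summed to 17.9 to 18.1 FPKM in Dgcr8-/- cells at 48 h and 1.51 to 1.62 in 2iL, and to 11.7 to 12.3 in wild-type cells at 48 h and 2.51 to 2.66 in 2iL. Dcn, a matrix proteoglycan of connective tissue, gave 11.9 and 12.6 FPKM of the Dgcr8-/- sums at 48 h, and Thy1 gave 5.84 and 5.35. In wild-type cells at 48 h, Thy1 gave 9.20 and 9.26 FPKM and Dcn 2.22 and 1.74. Col1a1, Col1a2, Col3a1, Postn, Lum and Twist2 were each below 0.5 FPKM in every library. Whether these sums come from fibroblasts or feeder cells, and the part of such cells in the changes at 48 h, was not tested.

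Within Sfmbt2 the 71 hairpins occupied 51.6 kb, and the first began 96.2 kb from the start of the 225 kb gene. Their order was strongly repetitive. The run miR-467, miR-466, miR-669 occurred 11 times and held 33 of the 71 hairpins, with 282 to 292 bases from the start of the miR-467 hairpin to that of miR-466 and 214 to 230 bases from there to miR-669. The gap after such a run had a median of 1932 bases. Copies of miR-467a, miR-466b, miR-466c and miR-669a make up most of these runs, and many of their rows share their values. Some copies do not: miR-466b-3-3p averaged 38.1, where miR-466b-3p averaged 71.7, and miR-669a-3-3p averaged 3.92, where miR-669a-3p averaged 159. Single-copy letters such as miR-669e near the start of the array, and miR-466l and miR-669h near its end, had values of their own.

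The members were of moderate and very unequal abundance. Over the 75 tested entries the mean of the 8 libraries ran from 0.370 for miR-669h-3p to 226 for miR-467a-5p, a 613-fold range with a median of 12.3. Only 4 member entries stood among the 100 most abundant of the 1602 entries in the whole table, with miR-467a-5p at rank 63. The 3 most abundant entries held 28.1% of the members' summed signal and the 12 most abundant held 61.5%. These levels are reads per arm, each entry counted once, and do not depend on length.

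The most abundant entry was miR-467a-5p, 11 rows that include miR-467b-5p. It measured 138 and 162 at 0 h, 116 and 113 at 12 h, 256 and 192 at 24 h, and 373 and 461 at 48 h. The 48 h libraries lay above all others, the 24 h libraries above those at 0 h, and both 12 h libraries below them. Its log2 change at 48 h against 0 h was 1.47 (SE 0.14, adjusted p = 8.7e-07 in limma).

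The miR-669a arms followed, both at the same level. miR-669a-5p, 14 rows with miR-669p-5p, measured 118 and 111 at 0 h, 101 and 107 at 12 h, 176 and 157 at 24 h, and 264 and 244 at 48 h. miR-669a-3p, 12 rows with miR-669o-3p, measured 111 and 107, then 111 and 112, then 143 and 169, and last 281 and 240 at the same times. At 48 h against 0 h they rose by 1.15 and 1.25 on the log2 scale (SE 0.11 each, adjusted p = 4.7e-07 for both in limma). miR-669c-5p, a single row, measured 125 and 116 at 0 h, 105 and 107 at 12 h, 136 and 139 at 24 h, and 222 and 198 at 48 h. Its log2 change of 0.80 at 48 h (SE 0.10, adjusted p = 1.1e-05) was the smallest among the 12 most abundant entries, and its change at 24 h did not pass (log2 0.19, adjusted p = 0.13).

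In the miR-466 family the 3p arms were the abundant ones. miR-466b-3p, 10 rows, measured 40.8 and 49.0 at 0 h, 44.0 and 44.3 at 12 h, 68.9 and 71.1 at 24 h, and 132 and 124 at 48 h. miR-466p-3p lay 1.3 to 2.2% below it in every library (70.6 against 71.7 on average), so the pair may hold many of the same reads, and it was not taken as independent observations. miR-466a-3p measured 92.8 and 88.1 at 48 h and 28.6 and 33.2 at 0 h, a log2 rise of 1.55 (SE 0.11, adjusted p = 6.2e-08 in limma). miR-466b-3p rose by 1.51 and miR-466p-3p by 1.52 at the same time, also with an SE of 0.11.

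The other entries among the 12 most abundant were miR-467c-5p, miR-467e-5p, miR-467a-3p, miR-297a-3p and miR-669m-5p, with means of 87.4, 78.6, 56.6, 46.6 and 41.6. Their log2 changes at 48 h against 0 h lay between 1.16 and 1.21, with adjusted p-values of 1.7e-05 or below. miR-297a-3p was the least even between libraries, with 34.3 and 33.6 at 0 h, 35.2 and 30.5 at 12 h, 36.8 and 47.1 at 24 h, and 90.0 and 65.4 at 48 h. In all 12, both 48 h libraries lay above both 0 h libraries.

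**Figure D1:**
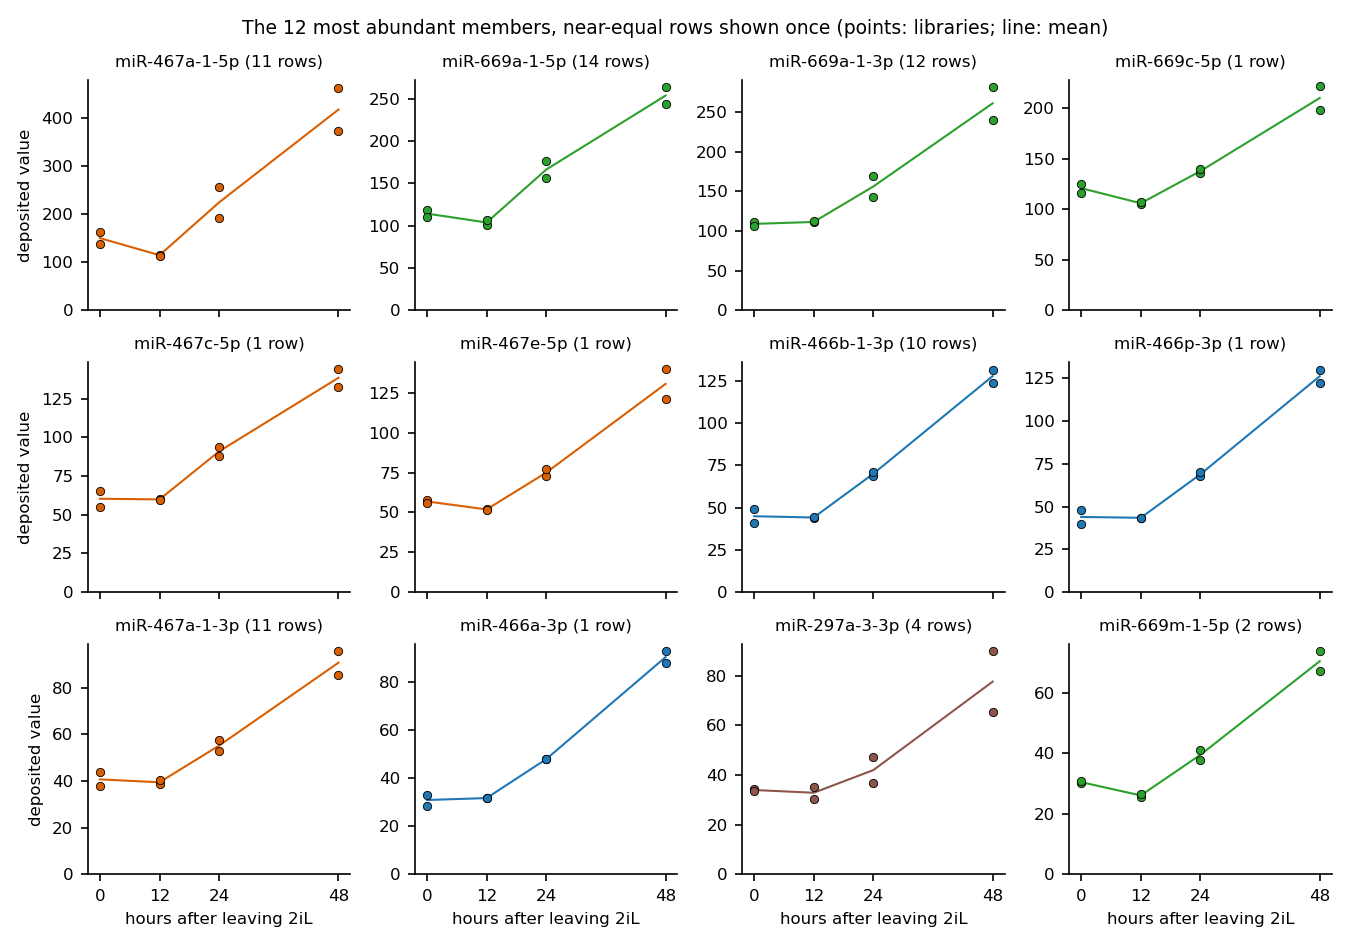
Deposited value (vertical axis, from 0) against hours after leaving 2iL for the 12 most abundant members in wild-type cells, with rows of near-equal values shown once; points are the 2 libraries of each time and lines join their means. The values are level or lower at 12 h and highest at 48 h in each panel, with miR-467a-5p the highest at 373 and 461.

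By 48 h nearly every tested member had risen. Of the 146 rows, 139 rose, 1 fell and 6 did not pass, where 40.3% of all 745 rows tested rose and 37% fell. The median log2 change was 1.16 for the members and −0.30 for the 599 other rows. Taking near-equal rows once, 68 of 75 entries rose and 1 fell, where 34.4% of 651 entries rose and 40.4% fell. Both 48 h libraries lay above both 0 h libraries for 71 of the 75 entries and below for 4. The share of all entries separated in this way was not counted, so this count alone is not a result about the members.

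Rises were called in each of the 4 families. By entry, all 6 of miR-297, 31 of 33 of miR-466, 8 of 10 of miR-467 and 23 of 26 of miR-669 rose at 48 h, with median log2 changes of 1.04, 0.94, 1.15 and 1.18. The 6 largest rises were in entries of very different levels. miR-466l-3p measured 1.70 and 1.84 at 48 h and 0.578 and 0.383 at 0 h (log2 1.71, SE 0.22, adjusted p = 1.1e-05 in limma). miR-669e-3p, much more abundant, measured 62.6 and 54.5 at 48 h and 20.2 and 18.4 at 0 h (log2 1.60, SE 0.11, adjusted p = 7.4e-08). miR-466n-3p and miR-669m-3p rose by 1.59 and 1.58 (SE 0.17 and 0.22), and miR-466a-3p and miR-466p-3p, given above, complete the 6 largest. All 6 are 3p arms.

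Within Sfmbt2, 133 of the 136 tested rows rose at 48 h, where 40.3% of all 745 rows tested rose. None fell in limma, also at an unadjusted p under 0.05 (0 rows), and every one of the 136 had a positive log2 change, from 0.30 to 1.71. These are counts of rows, in which near-equal copies repeat, so they stand for fewer distinct entries. The 3 that did not pass were both arms of miR-669h, the last hairpin of the array, and miR-669j-5p. miR-669h-5p measured 2.57 and 2.53 at 48 h and 1.97 and 2.13 at 0 h (log2 0.30, SE 0.16, adjusted p = 0.098).

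The rows outside Sfmbt2 were more mixed. Of the 20, 10 were tested, and at 48 h 6 rose, 1 fell and 3 did not pass, where 40.3% of all rows tested rose and 37% fell. The difference from the Sfmbt2 rows was not tested. miR-466f-4-5p, on chromosome 13, measured 18.9 and 16.7 at 48 h and 6.17 and 6.71 at 0 h (log2 1.45, SE 0.14, adjusted p = 5.4e-07 in limma). miR-297a-1-5p, on chromosome 7, measured 24.5 and 23.2 at 48 h and 11.2 and 10.7 at 0 h (log2 1.11, SE 0.11, adjusted p = 1.0e-06). Of the members whose sequences are printed above, miR-466j-3p rose by 1.23, miR-669n-5p by 1.05, miR-466k-5p by 0.57 and miR-466i-3p by 0.40 on the log2 scale, with adjusted p-values of 7.1e-04, 0.0014, 0.0020 and 0.016. miR-669n-5p reached 0.5 only in the 48 h libraries, at 0.730 and 0.590 against 0.289 and 0.243 at 0 h, so it was tested only through the group in which it is high.

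In limma 1 member fell at 48 h, miR-466q-5p, while edgeR, median-ratio scaling and quantile normalization each gave 2. It measured 11.5 and 15.9 at 0 h, 10.6 and 14.7 at 12 h, 8.60 and 10.5 at 24 h, and 9.26 and 7.56 at 48 h, so that both 48 h libraries lay below both 0 h libraries. Its log2 change was −0.69 at 48 h (SE 0.19, adjusted p = 0.0054 in limma) and −0.50 at 24 h (adjusted p = 0.039). Without the second 0 h library the 48 h change was −0.45 (adjusted p = 0.083), and without the second 48 h library it was −0.54 (adjusted p = 0.070). The RefSeq sequence printed for miR-466q belongs to the 3p arm, which averaged 0.0412 in these libraries, against 11.1 for the 5p row. The arm names of the table may not follow RefSeq for this hairpin, so whether the row that fell holds the printed sequence is not known.

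3 other rows outside Sfmbt2 had negative changes at 48 h that did not pass. miR-467g-5p changed by −0.59, miR-466j-5p by −0.42 and miR-467f-3p by −0.38, with adjusted p-values of 0.053, 0.17 and 0.13 and levels of 0.419, 0.542 and 1.06. The hairpin of miR-466j thus had a 3p arm that rose and a 5p arm that did not pass. By RefSeq gene spans, miR-466q lies in Tnik, miR-467f in Fxr2, miR-466i in Cdk13, miR-669n in Slc30a7, and miR-467g in Grk4, without regard to strand. None of Tnik, Fxr2, Cdk13 and Slc30a7 passed the test in wild-type cells at 48 h against 2iL, with log2 changes of −0.39, 0.22, −0.02 and 0.19 on the log2(FPKM + 1) scale and adjusted p-values of 0.078, 0.067, 0.82 and 0.080. Grk4 was below 1 FPKM in every library and was not tested.

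**Figure D2:**
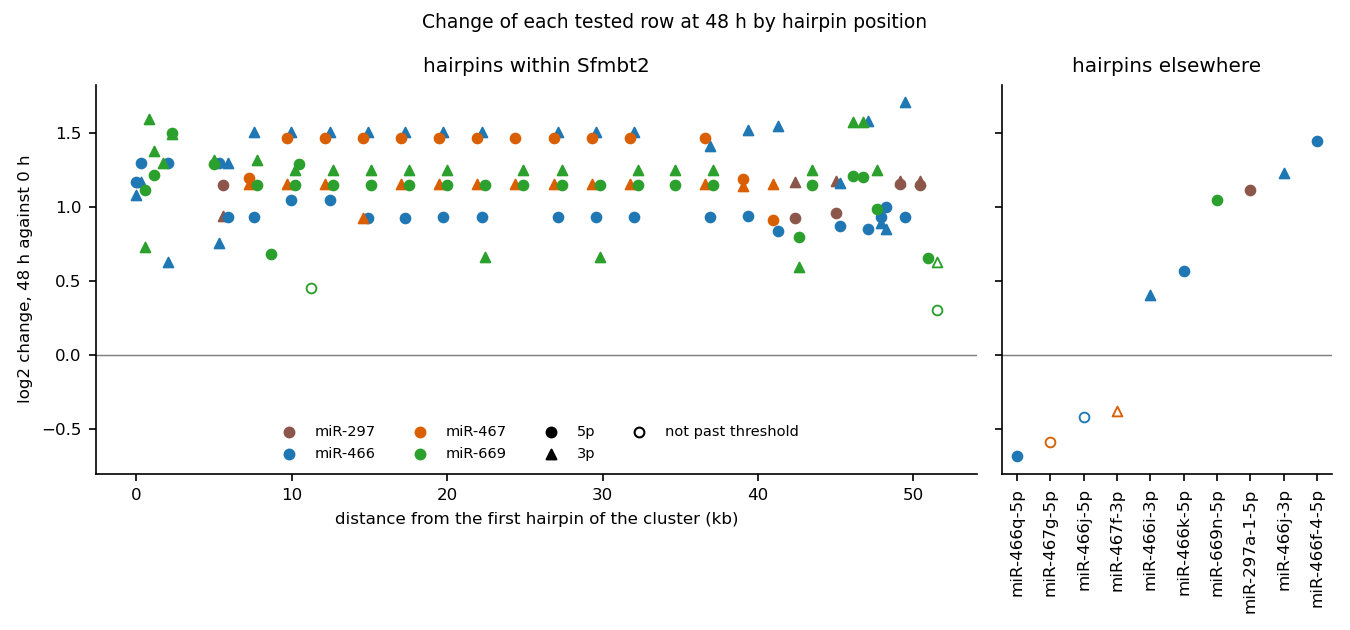
Log2 change at 48 h against 0 h for the 146 tested rows; the left panel places those within Sfmbt2 by distance in kb from the first hairpin of the array, the right panel ranks the 10 rows elsewhere. Colour gives the family, circles 5p and triangles 3p arms, and open symbols did not pass; all 136 values within Sfmbt2 lie above 0, and 4 of the 10 elsewhere lie below it.

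At 24 h the rise was under way but smaller. Of the 146 rows, 99 rose and 2 fell, where 30.9% of all rows tested rose and 23.8% fell. By entry, 38 of 75 rose and 2 fell, where 24.3% rose and 26% fell. All 38 of these were also higher at 48 h, and a further 30 entries passed at 48 h but not at 24 h. The 24 h and 48 h comparisons share the 0 h libraries. miR-466n-3p had the largest change, with 2.71 and 2.79 at 24 h against 1.17 and 1.11 at 0 h (log2 1.20, SE 0.17, adjusted p = 1.4e-04 in limma). miR-466l-3p followed at 0.78, then miR-669m-3p at 0.70, miR-466f-4-5p and miR-669e-3p at 0.67 each and miR-669c-3p at 0.65. The last of these measured 0.771 and 0.771 at 48 h and 0.709 and 0.919 at 24 h, so it went no higher after 24 h. The 2 that fell at 24 h were miR-466q-5p and miR-669h-5p, the second with 1.38 and 1.58 at 24 h against 1.97 and 2.13 at 0 h (log2 −0.45, SE 0.16, adjusted p = 0.031).

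The later intervals were tested directly. From 12 h to 24 h, 117 of 146 rows rose and none fell, where 27.8% of all rows tested rose and 16.6% fell. From 24 h to 48 h, 137 of 146 rose and none fell, where 32.9% rose and 29.8% fell. Near-equal copies repeat in these counts of rows. Taking them once, both 24 h libraries lay above both 12 h libraries for 65 of 75 entries and below for 2. Both 48 h libraries lay above both 24 h libraries for 69 and below for 1. For these separations, too, the share over all entries was not counted. Falls at an unadjusted p under 0.05 also numbered 0 in both intervals in limma, while edgeR and DESeq2 on the recovered reads each called 1 from 12 h to 24 h and 0 from 24 h to 48 h. The median log2 changes of the members in these intervals were 0.61 and 0.72.

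At 12 h no member had risen in limma, also at an unadjusted p under 0.05 (0 rows), in edgeR or in DESeq2, where 8.59% of all rows tested rose and, by entry, 9.06%. Members that fell numbered 21 of 146 rows, 14.4%, where 14.8% of all rows tested fell, and 11 of 75 entries, 14.7%, where 15.8% fell. The members' share of falls was thus near that of the table. This count also depended on single libraries: it was 6 without the first 12 h library, 11 without the second, and 35 without either of the 24 h libraries, which enter only through the estimate of the spread.

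Every one of the 11 entries that fell at 12 h was a 5p arm of miR-466 or miR-297. 8 of the 17 miR-466 5p entries and 3 of the 4 miR-297 5p entries fell, against 0 of the 16 miR-466 3p and 0 of the 2 miR-297 3p entries, and none of miR-467 or miR-669 fell in limma. By row, edgeR called 16 falls, 14 of miR-466 5p and 2 of miR-297 5p arms. DESeq2 called 34, of which 17 were miR-466 5p, 5 miR-297 5p, 11 the rows of the single miR-467a-5p entry and 1 miR-669d-2-5p. The shares of all rows that edgeR and DESeq2 called lower are not given here, so these 2 counts cannot be set against the table. By the arm names given, every member fall called at 12 h was a 5p arm in limma, edgeR and DESeq2, but whether miR-467 and miR-669 took part depended on the tool. For miR-669d-2-5p the name may not settle the arm, since its values were close to those of miR-669d-3p in every library. The falls among the other rows of the table were not divided by arm. Whether this split is particular to the members was therefore not tested. The steepest was miR-466d-5p, with 1.05 and 0.959 at 12 h against 1.68 and 2.21 at 0 h (log2 −0.88, SE 0.18, adjusted p = 0.0040 in limma). Close to it, miR-466n-5p measured 1.09 and 1.05 at 12 h against 1.74 and 2.35 at 0 h. This pair may hold many of the same reads, so entries of close relatives are not independent falls. miR-466n-5p, miR-466a-5p, miR-466p-5p, miR-297a-1-5p and miR-466b-8-5p changed by −0.86, −0.77, −0.62, −0.59 and −0.53, with adjusted p-values between 0.0026 and 0.0080. miR-466b-5p, 7 rows, measured 10.6 and 11.3 at 12 h against 15.2 and 16.3 at 0 h (log2 −0.52, SE 0.12). The 9 tested 3p entries of the hairpins whose 5p arm fell changed by −0.22 to 0.10, with a median of −0.05, and none passed in limma, also at an unadjusted p under 0.05 (0 entries). miR-466n-3p, for one, changed by −0.19. All 11 entries were higher at 48 h than at 0 h.

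The balance of the arms was also tested itself, as log2 of the 5p over the 3p value of each hairpin, in a comparison added after the 12 h values were seen. Many of the member pairs share their 5p or 3p entry with another pair, so the counts of pairs are not counts of independent observations. At 12 h, 35 of 38 member arm pairs had a lower 5p share than at 0 h, where 143 of all 237 pairs and 108 of the 199 other pairs did. The median change was −0.32 for the members and −0.04 for the others. No pair of any kind passed in limma (0% of 237 were lower), so the single-arm falls were not matched by a called change of balance. An unadjusted p under 0.05 was reached by 15 of the 38 member pairs, where 50 of all 237 pairs and 35 of the 199 others reached it. The lowest were miR-466d at −0.83 (SE 0.17, adjusted p = 0.11) and miR-466a at −0.81 (SE 0.18, adjusted p = 0.11). At 48 h, 7 of the 38 member pairs had a called shift to 3p and 2 to 5p, where 8.86% and 10.1% of all pairs did. Those that shifted to 3p were miR-466a, miR-466b-1, miR-466b-2, miR-466c-1, miR-466j, miR-466l and miR-466n, and those that shifted to 5p were miR-466f-2 and miR-466f-3. All 9 are miR-466 hairpins, and miR-466j changed most, by −1.66 (SE 0.22, adjusted p = 0.0012). Of these, miR-466b-1, miR-466b-2 and miR-466c-1 share the same 3p entry, and miR-466f-2 and miR-466f-3 share the same 5p entry.

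**Figure D3:**
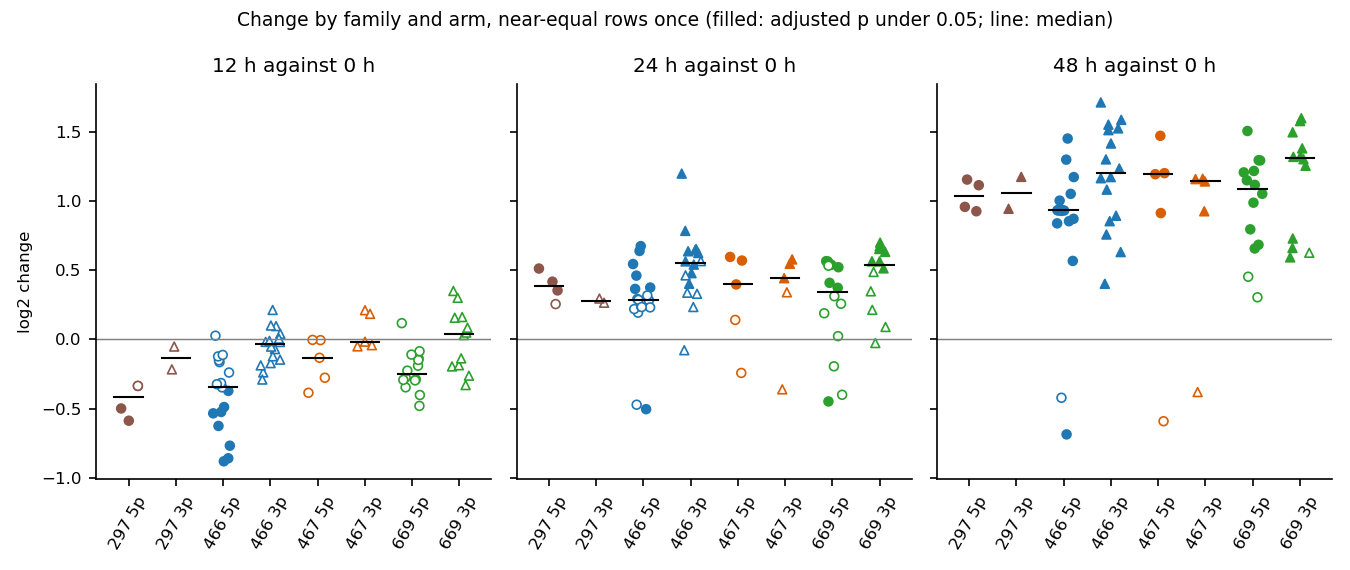
Log2 change at 12, 24 and 48 h against 0 h for the 75 tested entries, by family and arm; each point is 1 entry, filled where the adjusted p was under 0.05, and the black line is the median. At 12 h the filled points are 5p arms of miR-297 and miR-466, and at 48 h nearly all points lie above 0.

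The preferred arm differed between hairpins, even between close relatives. Among 53 distinct arm pairs, the 5p arm was the higher in 30 and the 3p arm in 23, and in 19 pairs 1 arm exceeded the other more than 10-fold, 14 toward 5p and 5 toward 3p. miR-669 leaned to 5p, in 14 of 18 pairs, and miR-466 to 3p, in 13 of 22. miR-669c averaged 143 for 5p and 0.676 for 3p, while miR-669e averaged 0.00183 for 5p and 31.2 for 3p. miR-467b shared its 5p value with miR-467a but averaged 0.689 for 3p, where miR-467a-3p averaged 56.6. Since reads that match several copies are counted at each, such a ratio describes the reads assigned to a hairpin and not the cutting of that copy alone.

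**Figure D4:**
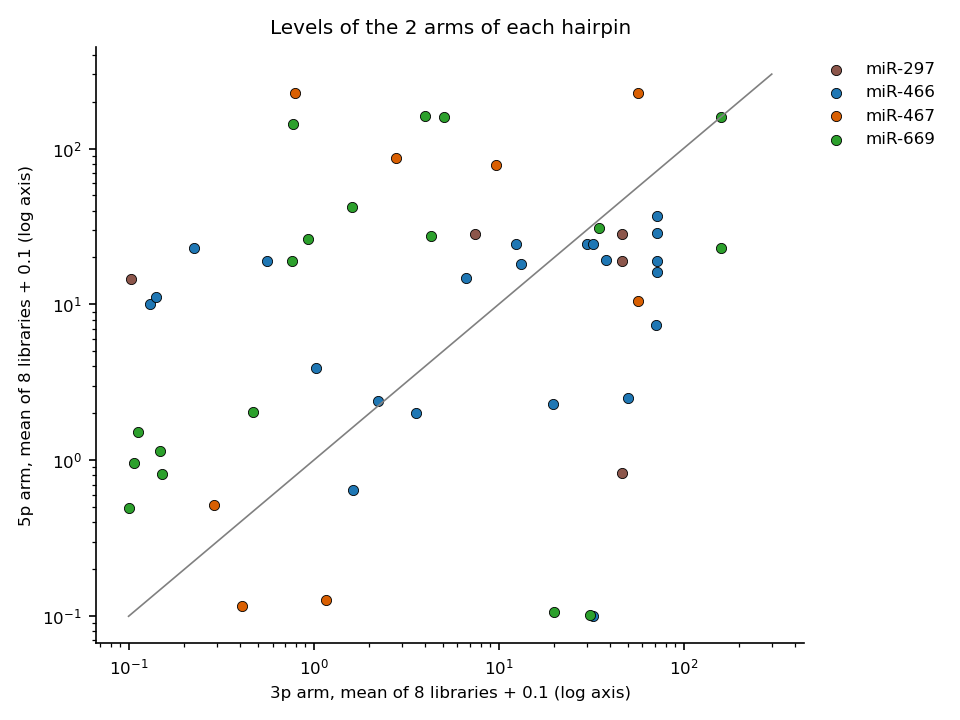
Mean of the 8 libraries plus 0.1 for the 5p arm (vertical, log axis) against the 3p arm (horizontal, log axis) of the 53 distinct arm pairs, coloured by family, with the line of equal levels. Points above the line have more 5p, the 14 farthest above it by more than 10-fold, and the pair of miR-669a-1 and its equal copies lies on the line.

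Summed over all entries, each counted once, the members measured 1375 and 1457 at 0 h, 1238 and 1268 at 12 h, 1916 and 1910 at 24 h, and 3278 and 3059 at 48 h. The 12 h sums lay below those at 0 h and the later ones above. The mean was 3168 ± 155 at 48 h against 1416 ± 58.2 at 0 h (SD, n = 2 each), a ratio of 2.24. With every row counted the sums were 16518 and 16162 at 48 h and 6617 and 6927 at 0 h, a ratio of 2.41, in which the many copies of miR-467a, miR-669a and miR-466b weigh more. An exact permutation test of 2 against 2 libraries cannot go below p = 0.333, and no model was fitted to these sums. The entries within Sfmbt2 summed to 2.29 times their 0 h value and those elsewhere to 1.46 times, from 133 and 121 at 48 h and 79.1 and 94.8 at 0 h. By family the ratios were 2.18 for miR-297, 2.15 for miR-466, 2.49 for miR-467 and 2.17 for miR-669. In the same libraries the miR-302 cluster reached 3.99 times its 0 h sum, miR-17/92 with its paralogs 1.40 times, and miR-290 to miR-295 0.696 times. Since every library is scaled to 1 total, a ratio is relative to the other small RNAs, and fewer cells with a miRNA and less of it per cell cannot be told apart.

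The host gene was measured in the mRNA libraries. Sfmbt2 (ENSMUSG00000061186, chr2:10370440-10595253) measured 14.4 and 13.9 FPKM in wild-type cells at 48 h and 6.68 and 6.68 FPKM in wild-type cells in 2iL. Its log2 change was 0.98 on the log2(FPKM + 1) scale (SE 0.06, adjusted p = 1.4e-05 in limma), where 30.9% of 13172 genes tested rose, and the ratio of mean FPKM was 2.12. At these times the summed signal of the entries within Sfmbt2 had a ratio of 2.29, and that of all members, with those elsewhere, 2.24. These are separate assays with 2 libraries a group.

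In Dgcr8-/- cells Sfmbt2 went the other way. It measured 2.59 and 2.66 FPKM at 48 h and 4.52 and 4.48 FPKM in 2iL, a log2 change of −0.60 (SE 0.06, adjusted p = 2.5e-04), where 21.8% of genes fell. Tested itself, the change in Dgcr8-/- cells minus that in wild-type cells was −1.58 (SE 0.09, adjusted p = 2.4e-05 in limma), where 21.7% of genes had a called negative difference. Dgcr8-/- cells had less Sfmbt2 than wild-type cells at 48 h (log2 −2.06, SE 0.06, adjusted p = 3.7e-07), where 38.5% of genes were lower, and in 2iL (log2 −0.48, SE 0.06, adjusted p = 4.7e-04), where 32.8% were lower. These comparisons share libraries. Dgcr8 itself was at 7.84 and 7.80 FPKM in Dgcr8-/- cells at 48 h and 9.11 and 9.33 in 2iL, against 20.7 and 20.9 in wild-type cells at 48 h and 18.3 and 19.2 in 2iL, so its transcript was reduced but present, and which part was deleted is not stated in the labels. The summed FPKM of 9 trophoblast markers, another lineage in which Sfmbt2 is known to act, was 13.8 to 14.0 in Dgcr8-/- cells at 48 h and 33.7 to 36.5 in 2iL, and 4.53 to 5.09 in wild-type cells at 48 h and 21.9 to 22.5 in 2iL. The sums were lower at 48 h through Tfap2c: without it the other 8 markers summed to 6.67 to 6.69 in Dgcr8-/- cells at 48 h and 4.92 to 5.39 in 2iL, and to 3.63 to 3.90 in wild-type cells at 48 h and 3.56 to 3.61 in 2iL. These 8 were mixed. Eomes was lower at 48 h, with 1.28 and 1.09 FPKM against 2.78 and 2.97 in 2iL in Dgcr8-/- cells, and 0.738 and 0.629 against 1.64 and 1.67 in wild-type cells. Ascl2 was higher, with 3.18 and 3.42 against 0.673 and 0.378, and 1.92 and 1.57 against 1.03 and 0.560. The part of these markers in the change of Sfmbt2 was not tested. The 69 entries of member hairpins in the mRNA table were all listed at 0.

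**Figure D5:**
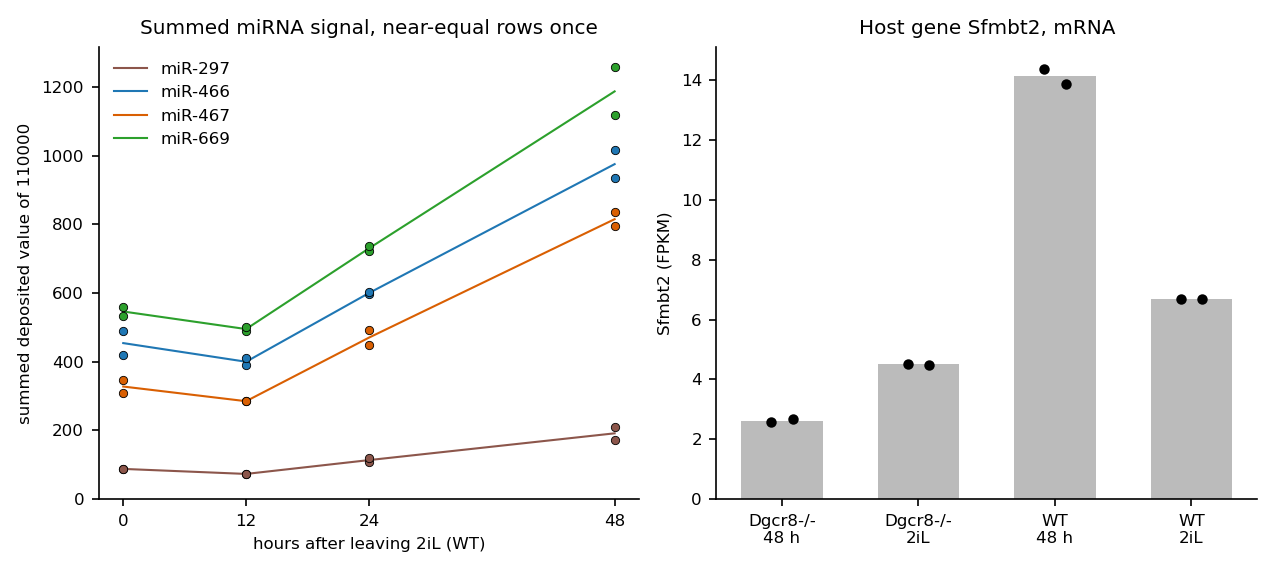
Left, summed deposited value of each family in wild-type cells against hours after leaving 2iL, near-equal rows counted once, with points for the 2 libraries and lines through their means. Right, Sfmbt2 FPKM in the 4 mRNA groups, bars for means and points for libraries; wild-type cells at 48 h, at 14.4 and 13.9 FPKM, stand above the other groups.

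The genes beside Sfmbt2 on chromosome 2 moved in both directions. In wild-type cells at 48 h against 2iL, Taf3, a subunit of the general transcription factor TFIID, rose by 0.38 (SE 0.10, adjusted p = 0.014), Atp5c1, a subunit of the mitochondrial ATP synthase, fell by 0.44 on the log2 scale (SE 0.06, adjusted p = 5.9e-04), and Kin and Gata3 did not pass (log2 0.00 and −0.37). In Dgcr8-/- cells Gata3, a trophoblast transcription factor, measured 1.62 and 1.56 FPKM at 48 h and 0.0791 and 0.124 FPKM in 2iL (log2 1.24, SE 0.18, adjusted p = 0.0011). It passed the filter of 1 FPKM only through these 48 h libraries, the group in which it is high. Atp5c1 fell by 0.26 (SE 0.06, adjusted p = 0.011), and Taf3 and Kin did not pass (log2 0.11 and −0.13). Itih2, Itih5 and Prkcq were not tested, being under 1 FPKM in every library.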

How the data were processed

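Per the labels' protocols, total RNA was prepared with Trizol and small RNA libraries with the Illumina TruSeq small RNA kit. The deposited small RNA values are relative signal for each arm of a hairpin, scaled by the authors so that each library sums to 110000; trimming and mapping of small RNA reads were not given in the sources used here. Low values were whole reads within 0.01 for 100% of those under 100 reads, as a sum of 2 read tables scaled to 55000 each, so shared reads also enter the library totals several times. The mRNA values were deposited as FPKM; STAR 2.5.0, Cufflinks 2.2.1 and mm10 are named by the submitters' processing notes; the depth of these libraries is unknown.

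The tests were limma 3.58.1 (R 4.3.3, intensity trend) on log2(signal + 0.1), with 4 group means over 8 libraries and Benjamini-Hochberg adjustment over all 745 rows reaching 0.5 in at least 2 libraries, and on log2(FPKM + 1) over the 13172 entries with at least 1 FPKM in at least 2 libraries; fold changes of low values are understated on these scales. Adjusted p under 0.05 was called. Rows of 1 family and arm agreeing within 2% in every library were merged as a second form, in place of a planned merge by mature sequence. edgeR 4.0.16 and DESeq2 1.42.0 were run on the recovered reads as alternatives. The limma steps were tested on simulated data. Members named are the 12 most abundant entries, the 6 largest called rises and falls at 48, 24 and 12 h, and both arms of abundant hairpins; rows outside Sfmbt2 and arm pairs named besides these were chosen after their values were seen. The members and lists were chosen with earlier results of these data known. Statistics given for an entry of several rows are those of its first row.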

Additional observations from a re-analysis of the deposited data

Results flagged for a closer look

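The 48 h change of Sfmbt2, the host gene of most members, differed between the genotypes by the interaction term of the limma fit. It was −1.58 on the log2(FPKM + 1) scale in Dgcr8-/- minus wild type (SE 0.09, adjusted p = 2.4e-05), with 2.59 and 2.66 FPKM in Dgcr8-/- cells at 48 h and 4.52 and 4.48 in 2iL, against 14.4 and 13.9 in wild-type cells at 48 h and 6.68 and 6.68 in 2iL. Both Dgcr8-/- libraries at 48 h lay below both in 2iL, and both wild-type libraries at 48 h lay above both in 2iL. Each genotype was 1 line, so genotype and line cannot be told apart.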

How the results depend on the processing

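The count of members that rose at 48 h against 0 h was 138 with DESeq2, 139 with edgeR and 135 to 140 with 1 library left out. The planned merge by mature sequence was not run. The count of members that fell at 12 h was the least stable: 34 with DESeq2, 34 with median-ratio scaling, 33 with only the 4 libraries compared, and 6 to 35 with 1 library left out. Members that fell at 24 h against 0 h numbered 1 with a mean of at least 5, 0 without the filter, 0 with only the 4 libraries compared, 2 with near-equal rows merged and 0 to 4 with 1 library left out. At 48 h against 0 h these were 2 with edgeR, 2 with median-ratio scaling, 2 with quantile normalization, 3 without the filter, 1 with near-equal rows merged and 0 to 2 with 1 library left out. At 24 h against 12 h they were 1 with DESeq2, edgeR, median-ratio scaling and quantile normalization each, and 0 to 1 with 1 library left out, and at 48 h against 24 h 1 without the filter; the cause was not tested. The summed signal, merged, gave 1.35 at 24 h and 2.24 at 48 h, where every row gave 1.43 and 2.41. Other scaling moved the median of all rows by at most 0.0799 (log2). The median of the members moved more. Against 0 h it was 1.16 at 48 h and 0.50 at 24 h in the main fit, 0.95 and 0.34 with quantile normalization, and 1.16 and 0.43 with median-ratio scaling. The Sfmbt2 changes kept their direction and call under each alternative, with an interaction between −1.83 and −1.56. With the replicate number as a block, 139 members rose at 48 h, 99 rose at 24 h and 19 fell at 12 h, and the Sfmbt2 interaction stayed at −1.58 (adjusted p = 1.3e-04); same-numbered libraries correlated at −0.294 to 0.271 in their deviations, so the numbers were not taken as pairs. Of 2805 values for the named members under alternatives, 95 lost and 23 gained a call and 0 reversed. Depth limits rows near the floor of 3 reads, 0.0361 to 0.0607, which covers counting error only.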
